A study of Mus musculus with 83 samples.

Results

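The genes described here encode 44 proteins of autophagy and the lysosome, from the kinases that start an autophagosome to the enzymes that digest its cargo. They were chosen by name as pathway members, and all 44 had a row among the 48795 genes of the count table. The table holds 83 RNA-seq libraries. Each was made from a pool of 125 neurons that were laser-captured from frontal cortex sectioned at 14 µm, all from C57BL/6 males. The mice were old (22 months, 12 in the series) or young (2 months, 9 in the series), and no transgene, deletion or treatment is given for either age. Neurons were recognised by staining for one transcript per type. Pyramidal cells (PYC) carried Slc17a7, and the interneuron types carried Pvalb (PV), Sst (SST) or Vip (VIP). There were 12 old and 9 young PYC libraries, 12 old and 8 young PV libraries, 12 old and 9 young SST libraries, and 12 old and 9 young VIP libraries. The series' title links cell-type-specific aging of the cortical microcircuit to cognition and anxiety, and the groups ask which genes differ with age in which neuron type.

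Autophagy wraps a piece of cytoplasm in a new membrane and delivers it to the lysosome, an acidic organelle in which hydrolases break proteins, sugars and lipids down to reusable parts. The kinases Ulk1 and Ulk2 start the process, a lipid kinase complex around Becn1 marks the growing membrane, and a pair of conjugation reactions run by Atg3, Atg5, Atg7, Atg12 and Atg16l1 anchors small Atg8-family proteins in it. Cargo receptors such as Sqstm1 and Optn hold the cargo against these proteins, and a proton pump, the V-ATPase, acidifies the lysosome that receives it. Neurons do not divide and cannot dilute damaged material, and mice that lack Atg5 or Atg7 in neurons develop neurodegeneration. Inherited loss of several lysosomal members, among them Npc1, Ppt1, Tpp1, Hexa and Grn, causes storage disease or dementia in people.

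Many lysosomal genes are known to carry in their promoters a DNA element bound by the transcription factor Tfeb, and the windows around the members' start sites were searched for its core. RefSeq windows of GRCm38.p6, each of 300 bases (250 before to 50 after a start site), were found for 37 of the 44 members, with 43 windows in all. The letters TCACGTG, read on both strands, stood in a window of 12 of these 37 genes (32.4%), against 4.29% of the 27025 genes with a window. The longer palindrome TCACGTGA, which overlaps itself as a match on each strand, stood in 8 of them (21.6%), against 1.13% of all genes. The 12 members were Ctsa, Ctsd, Lamp1, Mcoln1, Cln3, Glb1, Gla, Atp6v0d1, Atp6v1a, Lamtor1, Atg3 and Atg7. None of the windows of the initiation kinases, the nucleation genes, the Atg8 family or the cargo receptors held TCACGTG. Shown here are windows of 3 members to which the comparisons of types and ages return. Ctsa (chr2:164833523-164833822, + strand) was called in PV pools, Atp6v1a (chr16:44139210-44139509, − strand) was called in VIP pools, and Mcoln1 (chr8:3500269-3500568, + strand) had the smallest p for an age difference that varies by type. They run 5′ to 3′ and capitals mark TCACGTG on either strand.
Ctsa: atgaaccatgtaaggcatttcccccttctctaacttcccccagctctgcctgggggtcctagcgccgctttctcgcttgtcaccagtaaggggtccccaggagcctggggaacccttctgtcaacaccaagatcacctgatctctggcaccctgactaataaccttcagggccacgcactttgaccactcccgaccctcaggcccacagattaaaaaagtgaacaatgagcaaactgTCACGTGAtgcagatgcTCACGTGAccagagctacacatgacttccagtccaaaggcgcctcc
Atp6v1a: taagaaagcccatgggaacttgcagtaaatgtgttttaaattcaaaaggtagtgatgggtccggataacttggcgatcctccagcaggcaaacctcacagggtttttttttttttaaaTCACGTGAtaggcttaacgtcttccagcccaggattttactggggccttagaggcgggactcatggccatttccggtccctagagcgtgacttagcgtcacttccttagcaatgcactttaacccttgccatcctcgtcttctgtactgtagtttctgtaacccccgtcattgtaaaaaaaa
Mcoln1: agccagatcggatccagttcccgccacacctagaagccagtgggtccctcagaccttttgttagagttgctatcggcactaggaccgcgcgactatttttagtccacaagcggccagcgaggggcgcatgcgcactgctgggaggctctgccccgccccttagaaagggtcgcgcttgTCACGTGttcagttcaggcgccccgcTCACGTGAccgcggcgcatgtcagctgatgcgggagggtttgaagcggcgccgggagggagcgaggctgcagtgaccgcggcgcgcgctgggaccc
Of the 9 members called in at least 1 neuron type, 7 had a window and 2 of these, Ctsa and Atp6v1a, held the letters. A match describes the window and does not show that it is used.

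Library totals ran from 1.46 M to 27.2 M counts (M, mega) with a median of 6.99 M. Levels are given as CPM, the counts of a gene scaled to a common library total of 1 M. The mitochondrial share of counts was 0.215% to 2.51% in 6 libraries and 8.31% to 17.0% in the rest. The 6 were 1 old and 1 young PYC, 1 young SST, and 1 old and 2 young VIP libraries. Summed markers of the stained type, which hold the staining target, separated the pools of each interneuron type from the rest, but not those of PYC. The PV list summed to 697 to 1519 CPM in PV pools and 0.390 to 182 CPM in the others, the SST list to 2992 to 4424 CPM in SST pools and 33.7 to 2149 CPM in the others, and the VIP list to 1257 to 4202 CPM in VIP pools and 0.272 to 201 CPM in the others. Pools also held RNA of other cells. Pyramidal markers had medians of 1545 CPM in PYC, 431 in PV, 563 in SST and 759 in VIP pools. Their sum ran from 1012 to 2667 CPM in PYC pools and from 221 to 1179 CPM in the others, so the ranges overlapped. Summed markers of 12 astrocyte genes had medians of 2879, 2030, 2734 and 3265 CPM in PYC, PV, SST and VIP pools, and those of 12 microglial genes 68.3, 49.7, 76.6 and 90.1 CPM. No summed marker list, library total or mitochondrial share passed between old and young pools of a type after adjustment over the 48 exact permutation tests. The smallest p was that of the mitochondrial share in SST pools, averaging 11.9% in old and 9.29% in young (adjusted p = 0.099). Next came precursor markers of oligodendrocytes in PV pools, at 53.6 and 100.5 CPM (0.106), and library totals in SST pools, at 6.25 M and 10.6 M (0.441). In pools, fewer cells of a type and less RNA per cell cannot be told apart.

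The members spanned a wide range of abundance. Psap, which encodes prosaposin, the precursor of the saposins that present lipids to lysosomal enzymes, had the highest median at 577 CPM over the 83 libraries (chr10:60277627-60302597). Ctsb, the cysteine protease cathepsin B (chr14:63122462-63145923), followed at 335 CPM. The catalytic proton pump subunit gene Atp6v1a had 234 CPM, the cargo receptor gene Sqstm1 203 CPM and the Atg8-family gene Gabarapl1 190 CPM. Per kilobase of exon, the scale on which genes can be compared, Psap was again first at 210.1 CPM per kb and Gabarapl1 was second at 94.2, with Sqstm1 at 60.4, Atp6v0d1 at 57.4, Ctsb at 55.3 and Map1lc3a at 53.1. At the low end stood Gla, the α-galactosidase gene, with a median of 1.52 CPM and no count in 29 libraries. Cln3, a lysosomal membrane protein gene, had 1.52 CPM and no count in 26, and Tfeb, the transcription factor itself, had 1.55 CPM and no count in 25. Npc2, the soluble cholesterol carrier gene, had 2.84 CPM and no count in 14. In all, 28 members had a count in every library and 37 had a median of at least 10 CPM. A count of 0 in so few cells says only that no read was counted.

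By role, the proton pump genes (median 38.8 CPM per kb over the 3), the cargo receptors (35.6 over the 2) and the Atg8 family (34.6 over the 4) were the most abundant groups per kilobase. The initiation kinase group, Ulk1, Ulk2 and the regulatory subunit gene Atg13, stood at 17.0 CPM per kb. Lysosomal membrane proteins had 7.26, glycosidases and lipid-handling proteins 6.80, cathepsins and other peptidases 6.31, nucleation and membrane supply genes 5.88 and conjugation enzymes 4.02 CPM per kb. Within the Atg8 family the order per kilobase was Gabarapl1, Map1lc3a (53.1), Gabarap (16.1) and Map1lc3b (13.02). The order depends on the merged exon lengths, 1181 bases for Map1lc3a and 7517 bases for Map1lc3b. In CPM, Map1lc3b (97.9) stood above Map1lc3a (62.7). Spread between libraries followed abundance. The median coefficient of variation within a group of libraries was 17.5% for Psap, 19.9% for Ctsb, 24.6% for Atp6v1a and 25.6% for Sqstm1, and it ran from 88.5% to 138% in the 7 members with a median under 10 CPM. The plot of type medians shows most members within a narrow band across the 4 types, and the lowest members scattered.

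**Figure D1:**
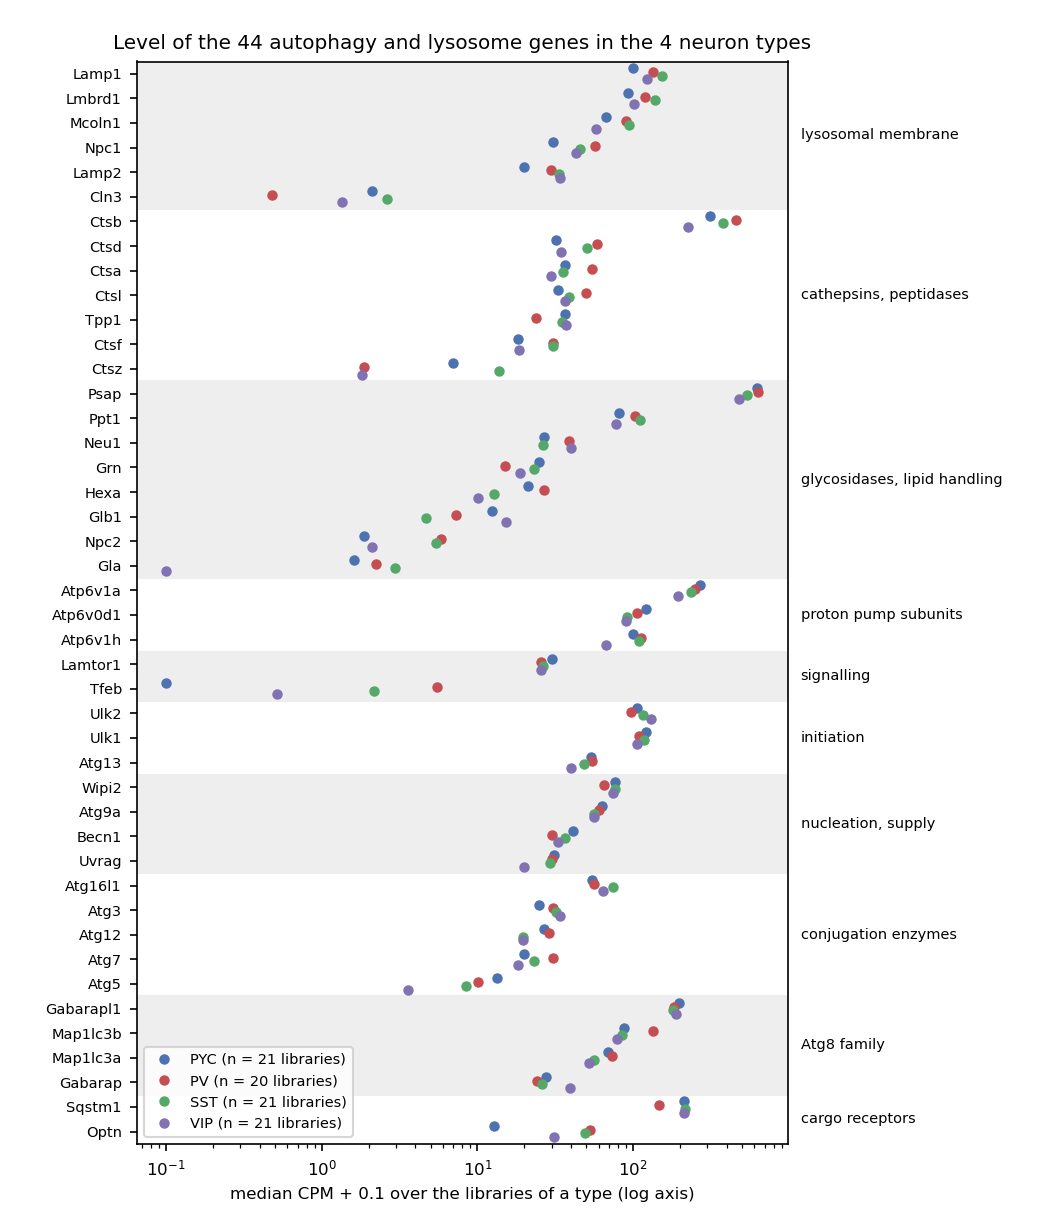
Median CPM of each of the 44 members in PYC (21 libraries), PV (20), SST (21) and VIP (21) pools, on a log axis with 0.1 CPM added, grouped by role. Psap and Ctsb lead, the VIP points of Ctsb and Atp6v1h lie left of the other types, the PYC point of Optn lies left of the others, and Gla, Cln3, Tfeb and Npc2 lie lowest.

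All 44 members together took a median of 0.348% of counts in PYC, 0.378% in PV, 0.358% in SST and 0.319% in VIP pools. By median, 20 members were lowest in VIP, 12 in PYC, 8 in PV and 4 in SST, and 16 were highest in PV, 11 in SST, 10 in PYC and 7 in VIP. The comparisons that follow set each neuron type beside the average of the 3 remaining types, with old and young pools weighted equally. All fold changes given below are log2 values, so a positive value means higher. They use edgeR's quasi-likelihood test over 9604 genes at or above the median abundance, and a gene is called where its p, adjusted over those genes by the Benjamini-Hochberg method, is under 0.05. Of the members, 40 were abundant enough to be tested, and Cln3, Gla, Npc2 and Tfeb were not. Pools of different types can come from the same mouse, which the labels do not record, so p-values treat them as independent.

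PV interneurons, the fast-spiking basket and chandelier cells of the cortex, were the type in which most members were called. The members were led by cathepsin B, cathepsin A, prosaposin, the thioesterase gene Ppt1, the Atg8-family gene Map1lc3b and the cargo receptor gene Optn, which were all higher, while the cargo receptor gene Sqstm1 was lower. That makes 6 of 40 members called higher and 1 called lower, where 11.7% of all tested genes were called higher and 10.9% lower. The members' shares, 17.5% in both directions together against 22.6% of all genes, were not above the background. The median log2 fold change of the 40 members was 0.23, against 0.007 over all tested genes, and 27 of the 40 values were positive.

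Ctsb ran from 219.6 to 558 CPM with a median of 456 in 20 PV pools, and from 164 to 461 CPM with a median of 295 in 63 pools of the other types. The ranges overlapped, but 19 of 20 PV pools stood above the others' median. Its log2 fold change was 0.65 ± 0.08 (SE), with an adjusted p of 4.57e-10 in edgeR. Old PV pools averaged 440.4 ± 98.7 CPM (SD, n = 12) and young PV pools 446 ± 72.6 CPM (SD, n = 8), and with old or young libraries alone the log2 fold change was 0.60 ± 0.11 and 0.67 ± 0.13, called both times. Ctsa, a serine carboxypeptidase that also stabilises lysosomal neuraminidase and β-galactosidase (chr2:164832873-164841032), ran from 18.0 to 159.6 CPM with a median of 54.2 in PV pools, against 1.93 to 124 CPM with a median of 30.7 in the other pools. Its fold change was 0.85 ± 0.23 with an adjusted p of 0.0035 in edgeR, and 19 of 20 PV pools lay above the others' median. On the annotation, 12.8% of the exonic bases of Ctsb are shared with Fdft1 on the other strand. Ctsa shares 10.5% with Pltp and 6.87% with Neurl2, also on the other strand. Since the strand setting of the counting is not given, counts of both genes are uncertain to that extent. Ppt1, which removes palmitate from proteins in the lysosome (chr4:122836242-122859175), had a median of 102 CPM in PV pools and 84.2 CPM in the others, a fold change of 0.49 ± 0.19 and an adjusted p of 0.0473 in edgeR. That call was lost under 7 of 8 other settings, where the adjusted p reached 0.355. By type, the median of Ppt1 was 80.9 CPM in PYC, 111 in SST and 77.7 in VIP pools, so SST pools stood above PV pools. Psap had a median of 634 CPM in PV pools and 543 CPM in the others. It had a small log2 fold change of 0.24 ± 0.07 with an adjusted p of 0.00542 in edgeR. By type, its median was 628 CPM in PYC, 542 in SST and 481 in VIP pools.

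Among autophagy members, Map1lc3b, which encodes LC3B, the protein most used to mark autophagosomes (chr8:121590361-121598760), ran from 67.4 to 231 CPM with a median of 133 in PV pools, against 5.26 to 168 CPM with a median of 84.4 in the other pools. The fold change was 0.74 ± 0.17 with an adjusted p of 0.00023 in edgeR, and 18 of 20 PV pools lay above the others' median. Its close relative Map1lc3a did not pass in PV, with 0.39 ± 0.19. The 2 cargo receptors went in opposite directions. Optn encodes optineurin, a receptor for ubiquitin-tagged mitochondria and bacteria (chr2:5020642-5064051). It ran from 29.9 to 95.6 CPM with a median of 52.6 in PV pools, against 0 to 125 CPM with a median of 31.1 in the other pools. Its log2 fold change was 0.88 ± 0.29 with an adjusted p of 0.0159 in edgeR. By type, its median was 12.8 CPM in PYC, 48.7 in SST and 31.1 in VIP pools. Sqstm1, which encodes p62, a receptor for ubiquitin-tagged protein aggregates (chr11:50199366-50210827), ran from 113 to 233 CPM with a median of 146 in PV pools, against 89.4 to 436 CPM with a median of 213 in the others. Its fold change was −0.41 ± 0.11 with an adjusted p of 0.0035 in edgeR, and 18 of 20 PV pools lay below the others' median. On the annotation, 17.3% of the exonic bases of Sqstm1 are shared with Mrnip on the other strand, and the strand setting of the counting is not given.

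Markers of glia were lower in PV pools, the astrocyte sum having a median of 2030 CPM in PV and 2915 CPM in the other pools and the microglial sum 49.7 and 76.6 CPM, while Ctsb and Ctsa, which glia also express, were higher there. Their part in the fold changes was not tested. With old libraries alone 6 of 37 tested PV members were called, against 19.5% of all genes in that fit. With young libraries alone 1 of 37 was, Ctsb, against 13.9% of all genes.

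**Figure D2:**
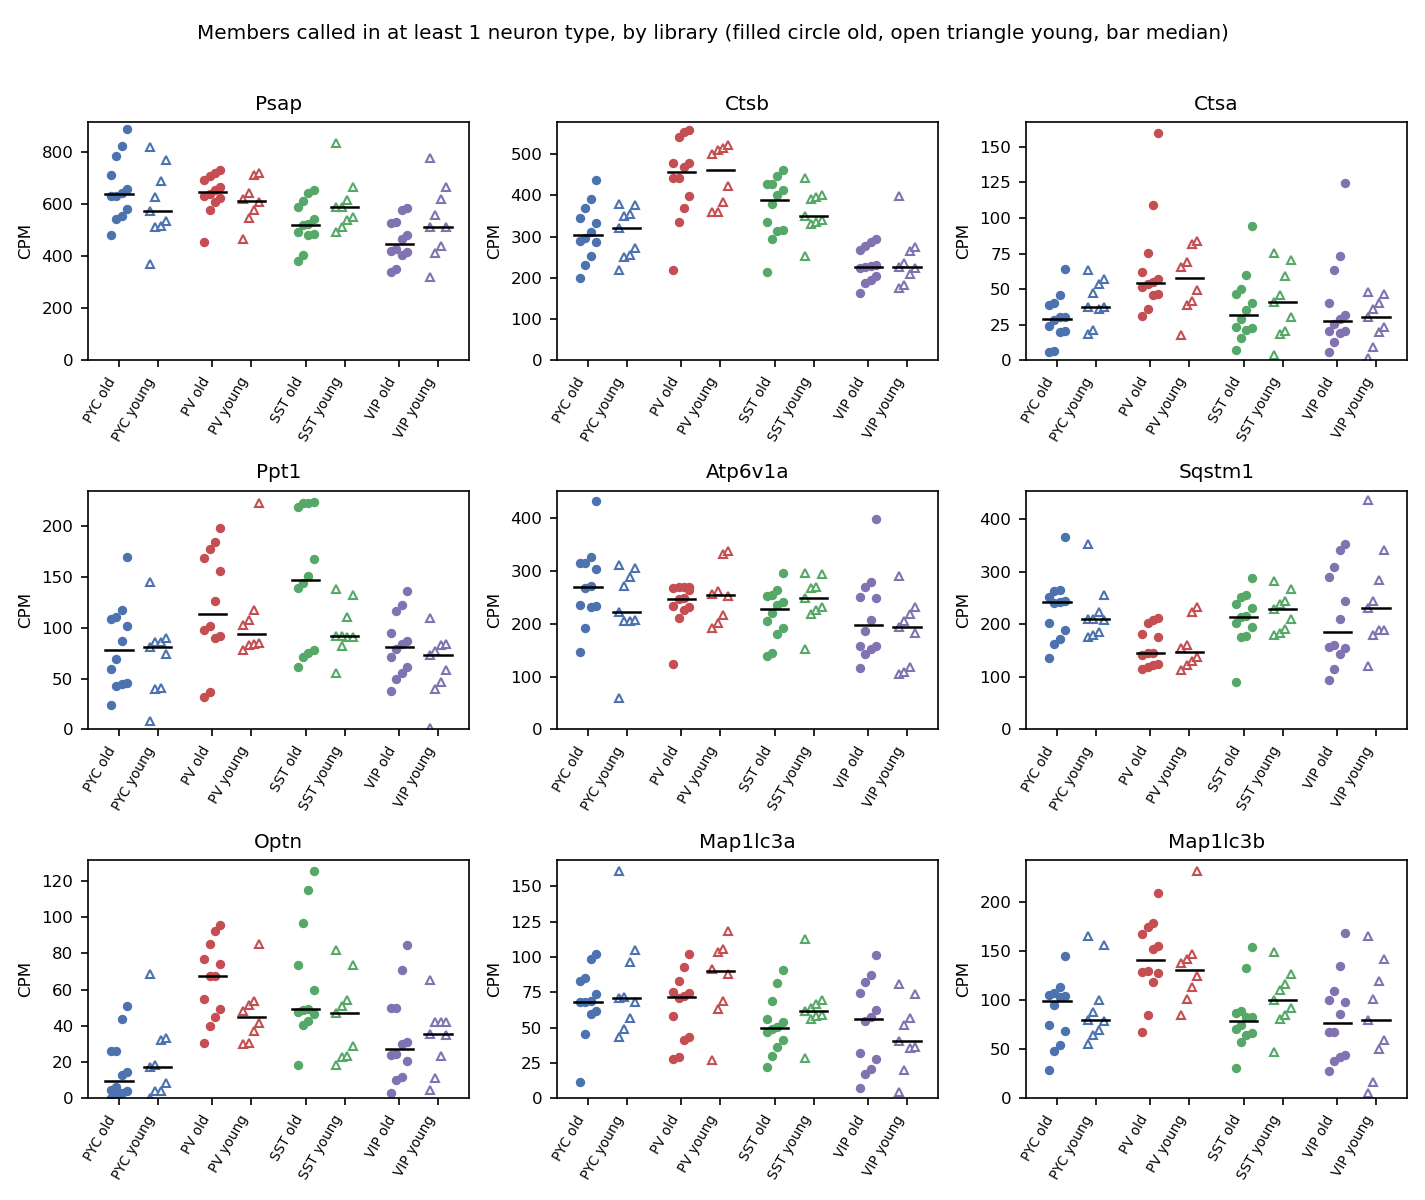
CPM in every library of the 9 members called in at least 1 type, with old pools (filled circles) left of young pools (open triangles) and bars at the group medians. Ctsb is highest in PV and lowest in VIP pools at both ages, Sqstm1 is lowest in PV, and Optn is lowest in PYC, with several libraries at or near 0.

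VIP interneurons, which mostly inhibit other interneurons, had 5 of 40 members called lower and 0 called higher, where 6.2% of all tested genes were called lower and 5.8% higher (4.9% and 7.77% with RLE size factors). In both directions together that is 12.5% of members and 12.0% of all genes. The members were Ctsb, Psap, Ppt1, Atp6v1a and Map1lc3a. The median log2 fold change of the 40 members was −0.23, against −0.006 over all tested genes, with 28 values negative and 12 positive, and 15 of the 40 members had an unadjusted p under 0.05, against 22.3% of all tested genes. Ctsb ran from 164 to 398 CPM with a median of 227 in 21 VIP pools and from 199 to 558 CPM with a median of 369 in 62 pools of the other types. All VIP pools but 1 lay below the others' median, and the fold change was −0.70 ± 0.09 with an adjusted p of 6.92e-10 in edgeR. It was −0.69 ± 0.12 with old libraries alone and −0.68 ± 0.14 with young libraries alone, called both times. Psap ran from 321 to 774 CPM with a median of 481 in VIP pools, against 368 to 885 CPM with a median of 609 in the others, and its fold change was −0.36 ± 0.07 with an adjusted p of 6.81e-05 in edgeR. It was below the others' median in 18 of 21 VIP pools.

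Atp6v1a, the subunit of the proton pump that hydrolyses ATP (chr16:44085402-44139705), ran from 105 to 399 CPM with a median of 194 in VIP pools, against 60.4 to 433 CPM with a median of 247 in the other pools. The fold change was −0.37 ± 0.11 with an adjusted p of 0.013 in edgeR. Without the 6 libraries of low mitochondrial share it was −0.28 ± 0.10 and not called, with an adjusted p of 0.0633. The call of Atp6v1a was also lost with young libraries alone. With old libraries alone 2 of 37 members were called in VIP pools, Ctsb among them. Atp6v1a and Psap thus did not both keep their calls in that fit. Map1lc3a, another LC3 gene (chr2:155276297-155278073), had a median of 51.8 CPM in VIP pools and 67.9 CPM in the others, a fold change of −0.58 ± 0.19 and an adjusted p of 0.0333 in edgeR. Its medians were 68.6 CPM in PYC, 73.5 in PV and 56.3 in SST pools, so SST pools stood near VIP pools. For Ppt1 the medians were 77.7 CPM in VIP pools and 92.1 CPM in the others, with a fold change of −0.57 ± 0.20 and an adjusted p of 0.0415 in edgeR. The median of Ppt1 in PYC pools was 80.9 CPM. The call of Map1lc3a was lost under 4 of 8 other settings, where the adjusted p in edgeR reached 0.653 with old libraries alone. The call of Ppt1 was lost under 7 of 8, where it reached 0.313 with young libraries alone. Astrocyte markers summed to a median of 3265 CPM in VIP and 2718 CPM in the other pools, and microglial markers to 90.1 and 68.0 CPM. Oligodendrocyte markers summed to 603 and 716 CPM, and those of their precursors to 112 and 83.2 CPM. The part of glial RNA in the fold changes was not tested. With old or young libraries alone 2 of 37 members were called each time, against 7.73% and 6.89% of all genes, Psap not being one of them in young libraries (−0.26, adjusted p = 0.211 in edgeR).

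Pyramidal cells, the excitatory projection neurons, had 1 member called higher and 1 called lower of 40, where 9.13% of all tested genes were called higher and 7.5% lower. Optn was the lower one. It ran from 0 to 68.5 CPM with a median of 12.8 in 21 PYC pools and from 3.15 to 125 CPM with a median of 46.7 in 62 pools of the other types, and 19 of 21 PYC pools lay below the others' median. Its fold change of −1.33 ± 0.32, with an adjusted p of 0.000899 in edgeR, was the largest among called members. With old libraries alone it was −1.68 ± 0.41 and called, and with young libraries alone −0.97 ± 0.49 and not called, with an adjusted p of 0.284. Psap was the higher one, with a median of 628 CPM in PYC pools and 566 CPM in the others, a fold change of 0.21 ± 0.07 and an adjusted p of 0.0246 in edgeR. With young libraries alone its fold change was 0.09 ± 0.12 and not called. The median of Psap in PV pools was 634 CPM. The members' median log2 fold change was −0.03, the same as that over all genes. The 5 tested lysosomal membrane members all had negative values in PYC, of which none passed, the nearest being Npc1, the cholesterol exporter of the lysosome (−0.65 ± 0.25, adjusted p = 0.0583 in edgeR), and Lamp1, a main glycoprotein of the lysosomal membrane (−0.33 ± 0.13, adjusted p = 0.0631 in edgeR).

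SST interneurons, which target the dendrites of pyramidal cells, had 0 of 40 members called in edgeR, where 4.64% of all tested genes were called higher and 2.92% lower. At an unadjusted p under 0.05 there were 5 of 40 members, below the 15.8% of all tested genes, and they are given as values only. Lamp1 averaged 150 CPM in SST pools and 122 CPM in the others (0.29 ± 0.12), Ppt1 127 and 90.0 CPM (0.44 ± 0.19), Optn 55.5 and 36.6 CPM (0.67 ± 0.28), the proton pump gene Atp6v0d1 92.5 and 113 CPM (−0.30 ± 0.15) and Atg12 17.2 and 27.8 CPM (−0.74 ± 0.37). With limma-voom and quality weights 3 of 40 members were called in SST, against 11.8% of all genes in that fit, and with old libraries alone 1 of 37 was, against 6.07%. All 5 tested lysosomal membrane members had positive values and all 4 Atg8-family members negative ones, without any passing.

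The members that were called in no type are given here by their medians in PYC, PV, SST and VIP pools, in that order. Of the peptidases, Ctsd had 31.8, 58.1, 50.5 and 34.4 CPM, Ctsf 18.0, 30.3, 30.5 and 18.5 CPM, and Ctsl 32.8, 49.6, 38.5 and 36.2 CPM. Values of Tpp1, the peptidase lost in a childhood neuronal storage disease, were 36.7, 23.7, 35.02 and 37.1 CPM, and those of Ctsz 6.92, 1.77, 13.6 and 1.72 CPM. The hexosaminidase gene Hexa had 21.0, 26.6, 12.6 and 10.1 CPM, and the progranulin gene Grn 24.9, 14.99, 23.1 and 18.8 CPM. The β-galactosidase gene Glb1 had 12.3, 7.18, 4.56 and 15.2 CPM, and the neuraminidase gene Neu1 had 26.6, 38.9, 26.2 and 39.9 CPM. Of the membrane proteins, Lamp1 had 99.8, 133.9, 152 and 122 CPM, Lamp2 19.9, 29.6, 33.2 and 33.8 CPM, Npc1 30.5, 56.8, 45.8 and 42.6 CPM, Lmbrd1 92.1, 119, 138 and 101 CPM, and the calcium channel gene Mcoln1 67.3, 89.7, 94.5 and 57.6 CPM. PYC pools had the lowest median of each of these except Mcoln1, which was lowest in VIP pools. The pump gene Atp6v0d1 had 121.8, 106, 90.7 and 90.2 CPM and Atp6v1h 99.8, 112, 109 and 67.3 CPM, both lowest in VIP pools. Lamtor1, which anchors mTORC1 regulators to the lysosome, had 30.1, 25.6, 26.2 and 25.5 CPM. Ulk1 had 121.7, 109, 118 and 105 CPM, Ulk2 106, 96.95, 116 and 130.4 CPM, and Atg13 53.6, 54.5, 48.4 and 39.8 CPM. Of the nucleation and supply genes, Becn1 had 40.9, 29.8, 36.3 and 32.7 CPM, its partner Uvrag 30.9, 30.1, 29.2 and 19.9 CPM, the lipid-binding Wipi2 76.0, 65.3, 76.3 and 73.7 CPM, and Atg9a, a carrier of membrane, 62.8, 60.7, 56.0 and 56.3 CPM. In the conjugation group Atg3 had 24.6, 30.6, 32.0 and 33.6 CPM, Atg7 19.9, 30.6, 22.9 and 18.1 CPM, Atg12 26.8, 28.9, 19.4 and 19.4 CPM, and Atg16l1 54.7, 55.9, 74.4 and 63.5 CPM. Atg5 had 13.2, 10.004, 8.41 and 3.48 CPM, with no pass in VIP (−1.17 ± 0.54, adjusted p = 0.161 in edgeR). Gabarapl1 had 198, 183, 182 and 188 CPM. Gabarap had 27.3, 24.2, 26.0 and 39.5 CPM, and its fold change in VIP, 0.61 ± 0.23, had the opposite sign to those of the other Atg8-family genes there and did not pass (adjusted p = 0.0725 in edgeR). The 4 members too low to be tested had medians from 0 CPM (Gla in VIP and Tfeb in PYC pools) to 5.77 CPM (Npc2 in PV pools). Counts of Becn1, Atg9a and Gabarapl1 are uncertain, since 43.9%, 31.8% and 28.3% of their exonic bases are shared with other genes.

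**Figure D3:**
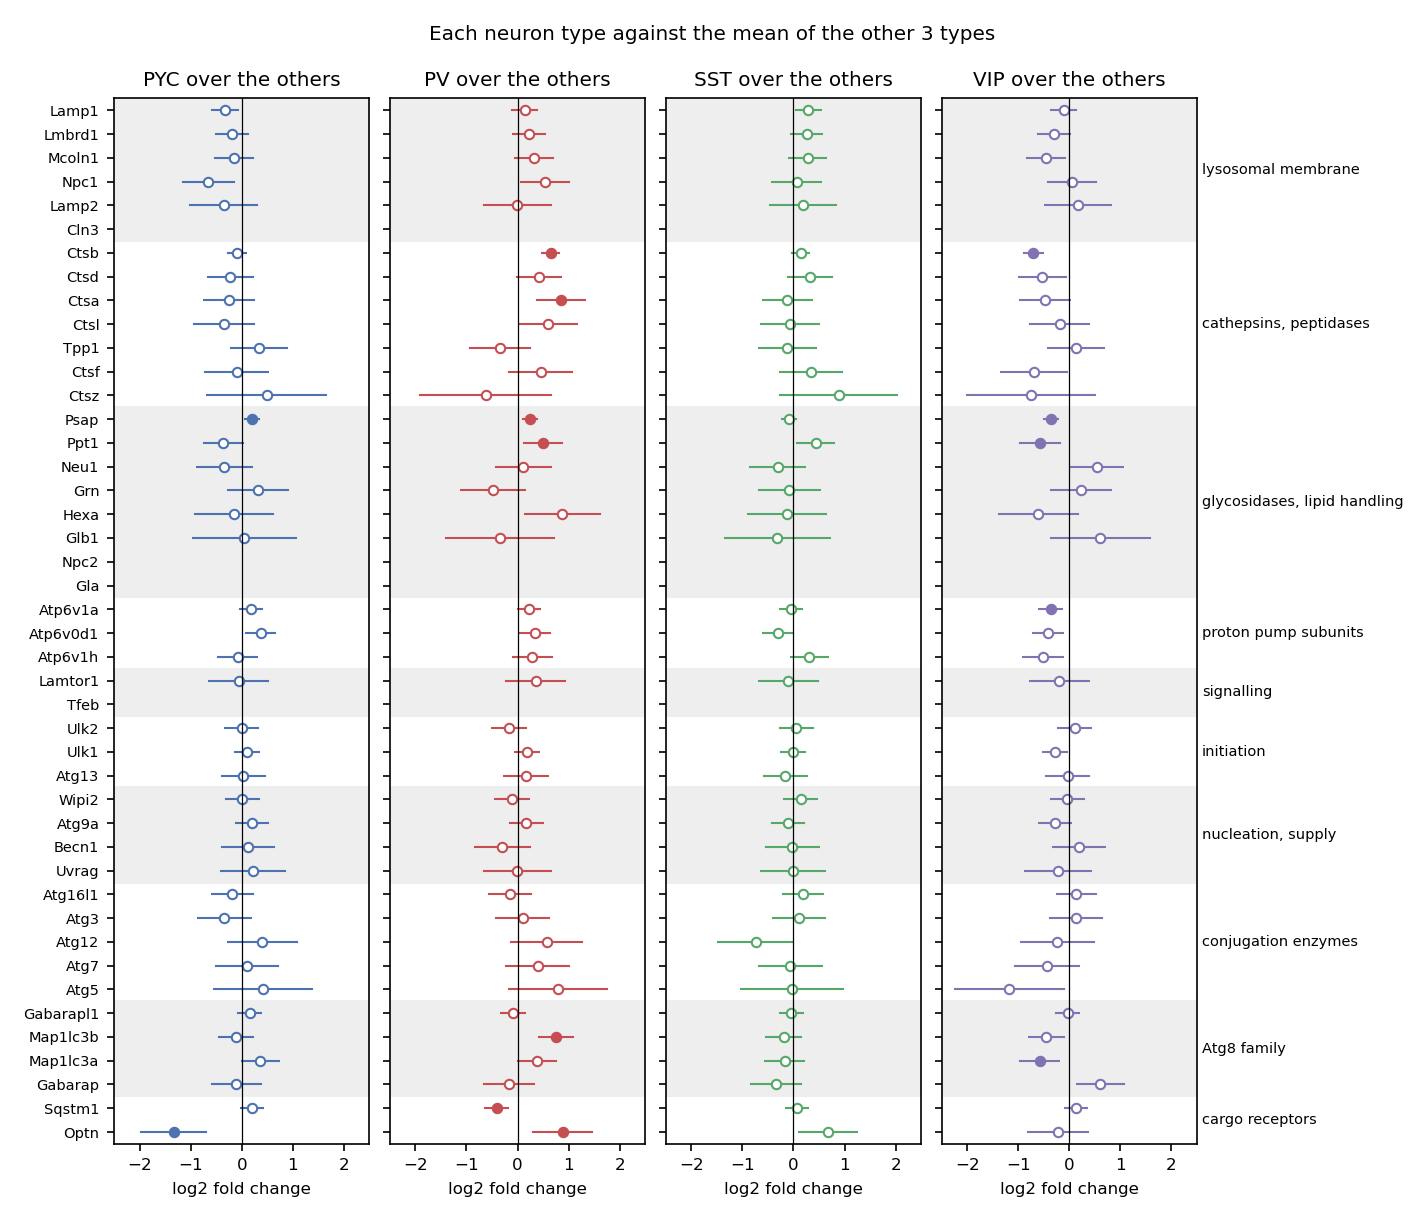
Log2 fold change of each tested member in a type relative to the average of the remaining 3, with 95% confidence intervals, from edgeR. Filled points were called at an adjusted p under 0.05 (2 in PYC, 7 in PV, 0 in SST, 5 in VIP), and genes without a point were not tested.

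Genes of the same pathways outside the 44 were read from the same fit. All 3 pump members had negative values in VIP pools, of which Atp6v1a passed while Atp6v0d1 (−0.41 ± 0.15, adjusted p = 0.0532 in edgeR) and Atp6v1h (−0.52 ± 0.20, adjusted p = 0.0677 in edgeR) did not. Of 15 other subunit genes, 8 were called lower and 0 higher in VIP pools, where 6.2% of all tested genes were called lower, and 14 of the 15 values were negative with a median of −0.46. This count of subunits was chosen after seeing the data. The 4 with the smallest p were Atp6v1g2 (−0.65 ± 0.09), Atp6v0a1 (−0.30 ± 0.07), Atp6v1b2 (−0.44 ± 0.11) and Atp6ap2 (−0.83 ± 0.22), which encode a stalk subunit, the membrane subunit a, a nucleotide-binding subunit and an accessory protein. In PV pools, where 11.7% of all genes were called higher, 4 of the 15 were called higher and 0 lower (Atp6v1g2 0.43 ± 0.09, Atp6v1b2 0.41 ± 0.10, Atp6v1e1 0.50 ± 0.15 and Atp6v1f 0.42 ± 0.15). In PYC pools, where 9.13% of all genes were called higher, 3 were called higher and 0 lower (Atp6v0e2 0.44 ± 0.12, Atp6v0c 0.57 ± 0.21 and Atp6v1g2 0.24 ± 0.09), and in SST pools 0 were called by edgeR, with 1 at an unadjusted p under 0.05. With old libraries alone 2 of the 14 subunits then tested were called lower in VIP pools, against 3.29% of all genes in that fit, and with young libraries alone 4 of 14, against 3.37%.

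**Figure D4:**
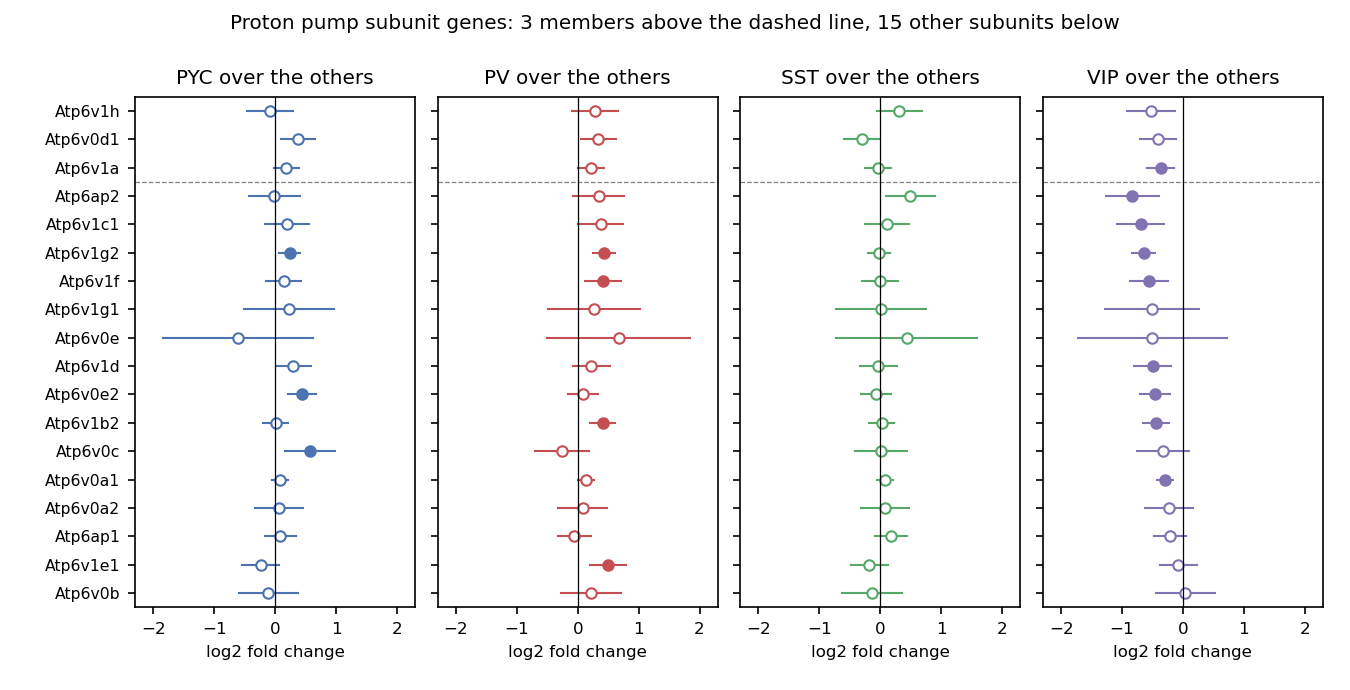
Log2 fold change, with 95% confidence intervals, of the 3 proton pump members and 15 other subunit genes in each type relative to the average of the remaining 3. Filled points were called in edgeR: in VIP 1 member and 8 other subunits, all to the left of 0.

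Among 21 tested other lysosomal hydrolases and cofactors, 3 were called higher and 0 lower in SST pools, and 0 higher and 4 lower in VIP pools. The shares of all tested genes called were 4.64% higher and 2.92% lower in SST and 5.8% higher and 6.2% lower in VIP pools. In PV pools 3 of the 21 were called in either direction, against 22.6% of all genes, and in PYC pools 2, against 16.6%. The SST genes were Gaa, the acid α-glucosidase that degrades glycogen (0.91 ± 0.10), the endopeptidase gene Lgmn (0.82 ± 0.20) and the acid phosphatase gene Acp2 (0.55 ± 0.18). Among the VIP genes were Lgmn (−0.72 ± 0.22), the acid lipase gene Lipa (−2.10 ± 0.69) and the acid sphingomyelinase gene Smpd1 (−0.52 ± 0.18). PYC pools had Ids, the iduronate sulfatase gene, higher (0.50 ± 0.11) and Gaa lower (−0.99 ± 0.11). PV pools had the mannosidase gene Manba higher (1.21 ± 0.44), and Ids (−1.002 ± 0.120) and the sulfatase gene Arsb (−0.68 ± 0.20) lower. Of 22 other membrane and sorting genes, the sorting receptor gene Sort1 was higher in PYC (0.68 ± 0.09) and lower in SST pools (−0.55 ± 0.09), Laptm4b was lower in PYC (−0.77 ± 0.27) and VIP (−1.12 ± 0.28) and higher in PV pools (1.52 ± 0.24), and Abca2 was higher in PV pools (0.28 ± 0.08).

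Counts of the lists that follow stand against the same shares of all genes called in either direction, 16.6% in PYC, 22.6% in PV, 7.56% in SST and 12.0% in VIP pools, and against 31.5% in PV, 15.8% in SST and 22.3% in VIP pools at an unadjusted p under 0.05. Of 28 tested genes of the autophagy machinery outside the members, 1 was called lower in PYC (Rubcn, an inhibitor of the lipid kinase complex, −0.46 ± 0.14), 0 in PV with 2 at an unadjusted p under 0.05, 1 higher in SST (Vps41, a fusion factor, 0.52 ± 0.16) and 2 lower in VIP pools (the Atg8 protease gene Atg4b, −0.89 ± 0.25, and Vps41, −0.50 ± 0.17). Of 16 other receptors and mitophagy genes, 3 were higher in PV (Retreg1 0.87 ± 0.28, Nbr1 0.46 ± 0.15 and Fundc1 1.23 ± 0.46), and Retreg1, a receptor for the endoplasmic reticulum, was lower in PYC pools (−1.17 ± 0.31). In SST pools 1 of the 16 was called higher, and none was called in VIP pools, where 3 had an unadjusted p under 0.05. Of 23 genes that regulate mTORC1 and Tfeb at the lysosome, 5 were higher and 1 lower in PV, 0 higher and 2 lower in PYC, 0 higher and 3 lower in VIP and none called in SST pools, where 2 had an unadjusted p under 0.05. In PV these were led by Depdc5, a brake on mTORC1 (0.68 ± 0.13), Mitf, a relative of Tfeb (2.26 ± 0.46), Rragd (−0.90 ± 0.21) and Zkscan3, a repressor of autophagy genes (0.83 ± 0.28). Depdc5 was lower in PYC (−0.50 ± 0.14) and VIP (−0.47 ± 0.14), Rragb was lower in PYC (−0.73 ± 0.26), and Rragc (−1.14 ± 0.36) and Zkscan3 (−0.96 ± 0.31) were lower in VIP pools.

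The second comparison set old against young pools within each type, with all genes that passed the count filter. In edgeR no member and none of the genes tested was called in any type. DESeq2 called 2 genes in PV and 1 in SST, no member among them. Without the count filter edgeR called 5734 to 7117 genes in a type, with Lmbrd1 the only member called in PYC, Mcoln1 the only one in VIP and 0 members in PV and SST pools. At an unadjusted p under 0.05 there were 3 of 43 tested members in PYC, 2 of 43 in PV, 3 of 44 in SST and 1 of 43 in VIP pools, against 2.91%, 2.32%, 2.87% and 2.98% of the 12508, 12564, 12805 and 12337 genes tested. Calls after adjustment were 0 of all genes in each type, a background of 0%. The members' median log2 fold changes were 0.02 in PYC, −0.05 in PV, −0.05 in SST and 0.13 in VIP pools, against 0.003, 0.005, −0.008 and 0.02 over all genes tested. For no member were the ranges of old and young pools apart in any type. Old pools gave the 44 members together 0.352% of counts in PYC, 0.381% in PV, 0.355% in SST and 0.318% in VIP by median, and young pools 0.344%, 0.371%, 0.362% and 0.319%. The precision limits what this could show. The median standard error of a member was 0.42 in PYC, 0.32 in PV, 0.36 in SST and 0.47 in VIP, and the 95% interval lay within 1 log2 unit of 0 for 19, 22, 19 and 14 members.

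In PYC pools, the smallest p was that of Lmbrd1, a lysosomal membrane protein that passes on vitamin B12 (chr1:24678630-24766301). Old PYC pools ran from 34.6 to 153 CPM with a median of 68.2, and young PYC pools from 86.8 to 169.5 CPM with a median of 128, so the groups overlapped. The log2 fold change was −0.71 ± 0.24 with an unadjusted p of 0.00423, which edgeR's adjustment over all genes put at 0.9998. Atg12, the ubiquitin-like protein joined to Atg5, had medians of 15.2 CPM in old and 38.9 CPM in young PYC pools (−1.06 ± 0.47). Hexa, a subunit of the hexosaminidase that degrades gangliosides, had 26.2 CPM in old and 10.4 CPM in young PYC pools (1.32 ± 0.60), and Grn, which encodes progranulin, 31.2 and 21.5 CPM (0.88 ± 0.45). None of these passed.

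PV pools had Lamp2, a lysosomal membrane protein needed for fusion with autophagosomes, at medians of 25.3 CPM in old and 49.4 CPM in young pools (−0.998 ± 0.427), and Ctsd, the aspartic protease cathepsin D, at 42.2 CPM in old and 67.1 CPM in young pools (−0.68 ± 0.32). Atg16l1 had 74.3 CPM in old and 49.2 CPM in young PV pools (0.53 ± 0.35), a sign that turned with the F number of the titles in the fit (−0.0185 ± 0.42), and Atp6v0d1 had 101 and 111 CPM (−0.34 ± 0.23). The Atp6v0d1 value rested on young PV library 2, which had 274 CPM, and was −0.049 ± 0.22 without it. Counts of Ctsd are uncertain because 34.4% of its exonic bases are shared with Gm49369 on the same strand. In SST pools Ppt1 had medians of 147.5 CPM in old and 92.04 CPM in young pools (0.59 ± 0.24), Atp6v0d1 68.4 and 124 CPM (−0.58 ± 0.27), Atp6v1h 91.6 and 144 CPM (−0.56 ± 0.27), and Lamp1 132 and 169.6 CPM (−0.31 ± 0.19). Their old and young ranges overlapped, and every adjusted p of these SST members in edgeR was 0.9999.

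In VIP pools the smallest p was that of Mcoln1, which encodes TRPML1, the calcium channel through which lysosomes signal to Tfeb (chr8:3500457-3515232). Old VIP pools ran from 13.02 to 420 CPM with a median of 59.2 and averaged 107 ± 121 CPM (SD, n = 12), and young VIP pools ran from 25.0 to 74.2 CPM with a median of 32.6 and averaged 46.1 ± 20.3 CPM (SD, n = 9). The log2 fold change was 1.23 ± 0.41 with an unadjusted p of 0.00486 and an edgeR adjusted p of 0.9996. Its old values came apart by library. Old VIP libraries 9 and 11 had 420 and 287 CPM, while the other 10 ran from 13.02 to 94.6 CPM. The same pair were the only old VIP libraries with more than 300 CPM of Sst, at 439 and 331 CPM, where the other 10 had 0.859 to 55.7 CPM. Library 11 also had a low mitochondrial share, 2.51%. Mcoln1 ran from 52.1 to 133 CPM in old and from 36.8 to 170.0 CPM in young SST pools. Whether these VIP pools held RNA of SST cells, and its part in their Mcoln1 values, was not tested. Without library 9 alone the log2 fold change in VIP pools was 0.77 ± 0.40. Without that pair it was 0.37 ± 0.40, against 1.23 with them. The other named VIP members were the kinase genes Ulk1 (medians of 116.5 CPM in old and 96.1 CPM in young pools, 0.44 ± 0.26) and Ulk2 (133 and 103.5 CPM, 0.43 ± 0.32), and the cathepsin gene Ctsf (11.2 and 26.7 CPM, −0.97 ± 0.79). Without young VIP library 1 the value of Ulk2 was 0.26 ± 0.26, and without the libraries of low mitochondrial share 0.20 ± 0.25.

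**Figure D5:**
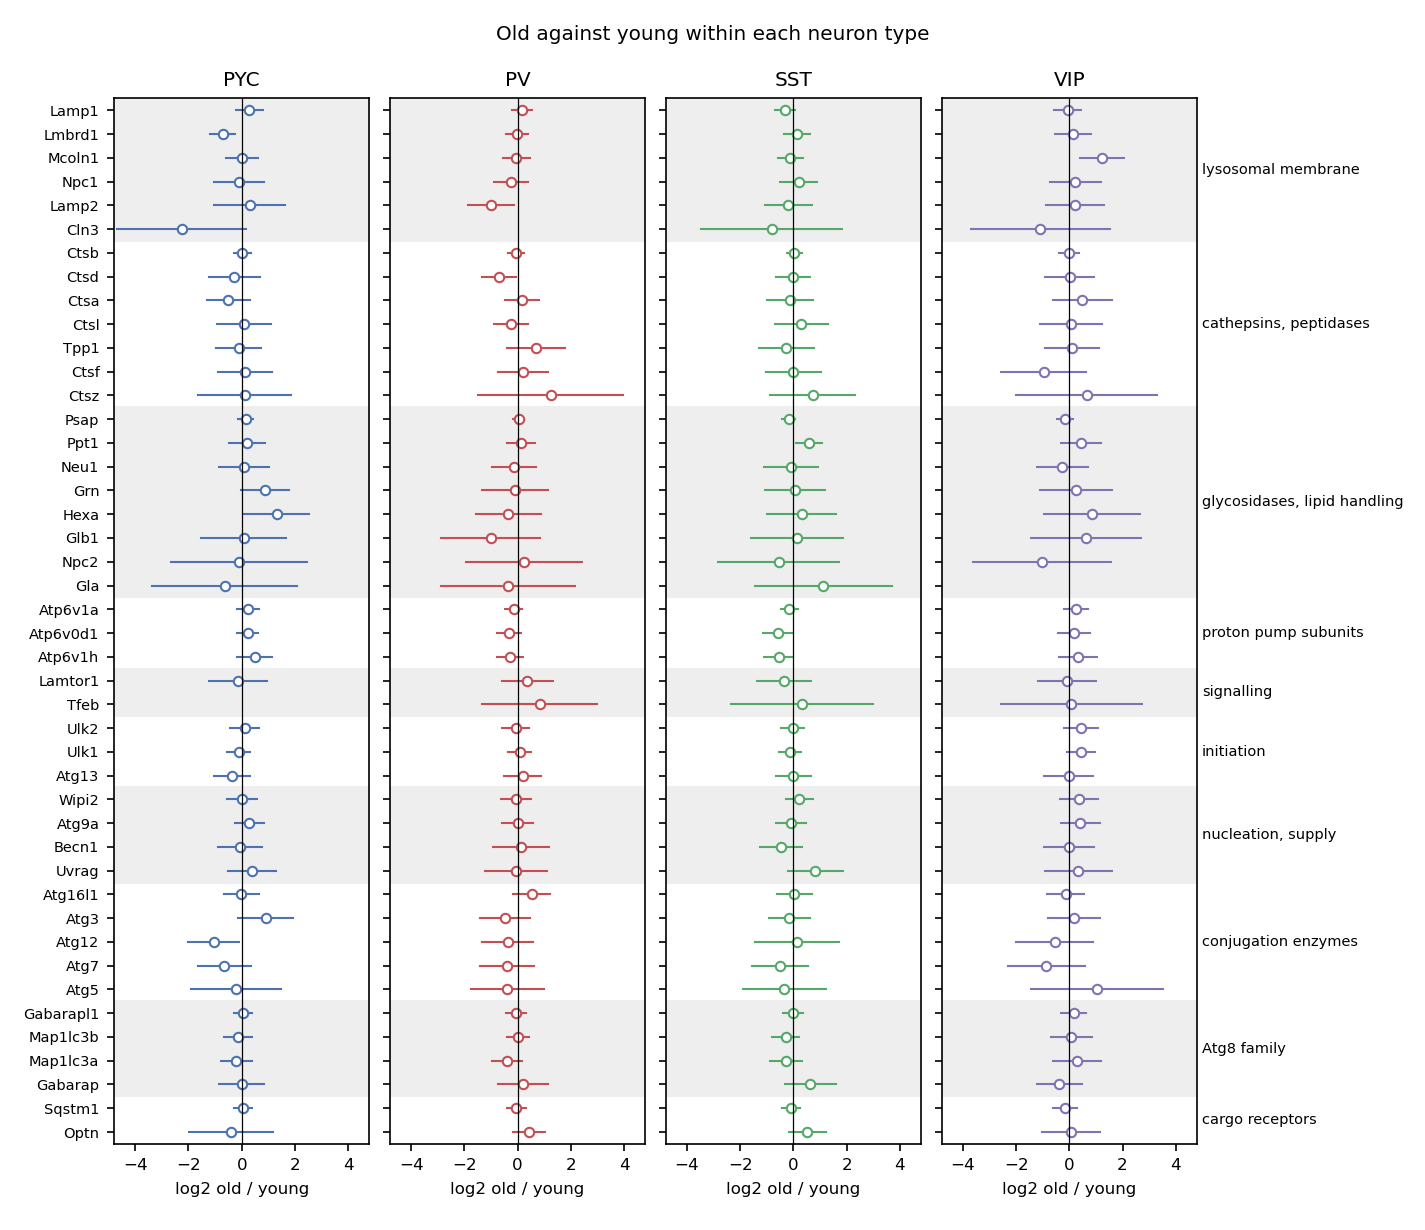
Log2 fold change of old over young pools for each member, with 95% confidence intervals, within PYC, PV, SST and VIP. All points are open because none was called, and wide intervals belong to members of low abundance, such as Cln3, Npc2, Gla and Ctsz.

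Averaged over the 4 types, 0 of 40 members and 0 of 9604 genes were called for age by edgeR (0%), and 2 members had an unadjusted p under 0.05, against 415 genes or 4.32%. Atg7, the enzyme that activates both conjugation systems, averaged 20.7 CPM in old and 31.5 CPM in young pools (−0.61 ± 0.27, unadjusted p = 0.0247) and had negative values in all 4 types, from −0.40 in PV to −0.86 in VIP. Ppt1 averaged 109 CPM in old and 86.3 CPM in young pools (0.34 ± 0.17, unadjusted p = 0.0459) and had positive values in all 4. The adjusted p in edgeR was 0.9999 for both. Mcoln1 (0.26 ± 0.16) and Hexa (0.53 ± 0.33) came next. Over the 41 members tested in every type, the value was positive in 2 of the 4 types for 21 members, in 1 for 9, in 3 for 8, in all 4 for 2 and in none for 1.

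The test of whether the age difference varied between types called 0 members in edgeR and 1 of 9604 genes (0.0104%), with 1 member at an unadjusted p under 0.05 against 253 genes or 2.63%. That member was Mcoln1 (unadjusted p = 0.00966, adjusted p = 0.9998 in edgeR), whose log2 fold change was 0.01 in PYC, −0.04 in PV, −0.13 in SST and 1.23 in VIP pools. Without the pair of old VIP libraries named above its unadjusted p was 0.611. The pump genes Atp6v0d1 (unadjusted p = 0.0576) and Atp6v1h (0.0803) came next, and all 3 pump members had positive values in PYC and VIP and negative values in PV and SST pools, where no value passed. Lmbrd1 followed (0.0812), with −0.71 in PYC, −0.02 in PV, 0.13 in SST and 0.13 in VIP pools.

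Other genes of the pathways were not called for age in any type, in the average or in the interaction by edgeR. In the average, the numbers with an unadjusted p under 0.05 were 1 of 21 other hydrolases, 0 of 22 other membrane and sorting genes, 1 of 15 other pump subunits, 0 of 28 machinery genes, 0 of 16 receptors and mitophagy genes and 3 of 23 mTORC1 and Tfeb regulators. The gene of smallest p was Gaa (0.23 ± 0.09) among hydrolases, the lysosome motility gene Arl8a (0.18 ± 0.11) among membrane and sorting genes, Atp6v1b2 (0.25 ± 0.09) among pump subunits, Atg16l2 (−0.59 ± 0.34) among machinery genes and Rragc (0.72 ± 0.30) among mTORC1 and Tfeb regulators. Within types, in the same order of these 5 lists, they were Gaa (0.49 ± 0.24), Borcs5 (−1.14 ± 0.67), Atp6ap1 (0.56 ± 0.22), Atg10 (3.42 ± 1.36) and Fnip2 (1.01 ± 0.60) in PYC pools. In PV they were Gaa (0.39 ± 0.15), Cln8 (−0.92 ± 0.47), Atp6v0e2 (−0.29 ± 0.20), Pik3r4 (0.70 ± 0.35) and Depdc5 (−0.48 ± 0.21). In SST they were Fuca1 (−1.35 ± 0.79), Gnptab (0.47 ± 0.27), Atp6v0a2 (−0.41 ± 0.31), Atg2b (0.51 ± 0.22) and Tfe3 (−1.06 ± 0.53). In VIP they were Ids (0.34 ± 0.20), Tmem192 (4.13 ± 1.53), Atp6v1b2 (0.43 ± 0.18), Wdr45b (0.86 ± 0.50) and Zkscan3 (1.56 ± 0.73). In the interaction they were Ids, Laptm4a, Atp6ap1, Pik3r4 and Zkscan3, with unadjusted p of 0.0591, 0.265, 0.144, 0.172 and 0.0164.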

How the data were processed

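Libraries were made with a low-input, strand-marking kit for total RNA, per the labels' protocols. The authors deposited raw counts per Ensembl gene, not normalized. The submitters' processing notes name HISAT2 and GRCm38. How reads were counted, with which annotation and strand setting, was not stated in the sources at hand, and overlapping genes are therefore uncertain. Symbols were matched for 48349 of 48795 genes, and coordinates and exon lengths are from GENCODE release M21 (GRCm38). CPM divides a count by its library total.

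Libraries were grouped by type and age from the labels. No label ties a library to a mouse or gives a batch, so p-values measure the spread between libraries. Age was tested within each type, and types, the average over types and the interaction in a fit of all 8 groups kept to the more abundant upper part of the genes (average log2 CPM at or over the median). Both used edgeR 4.0.16 in R 4.3.3 (TMM factors, filterByExpr with a minimum count of 10, robust quasi-likelihood F-test, 2-sided, Benjamini-Hochberg adjustment over all genes tested). Standard errors were taken from the F statistic and 95% intervals from the fit. Library measures were compared by 2-sided exact permutation tests. The tests were checked on simulated counts. An earlier simulation of the wider fit of all groups had made false calls among genes of low abundance, hence the abundance cut. The age fits within types had no such cut.

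The members and pathway lists were chosen with earlier results of these data known. Full statistics were to be given for the 4 members of smallest p in each age comparison and up to 6 called members of largest fold in each type comparison, and for other pathway lists up to 4 called genes, or the gene of smallest p where none was called. Some genes of these lists are not reported here. Other settings were RLE size factors, no filter, filterByExpr alone, DESeq2 1.42.0, limma-voom 3.58.1 with quality weights, the unexplained F number of the sample titles or the library total as a covariate, old or young libraries alone, and leaving out each library or the 6 libraries with under 3% mitochondrial counts. Chosen after seeing the data were the count of pump subunits in VIP pools and leaving out old VIP libraries in which Sst passed 300 CPM.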

Additional observations from a re-analysis of the deposited data

Results flagged for a closer look

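In groups of 8 or 9 young libraries, the highest or lowest value of a member was compared with the gap to its nearest neighbour. Of 176 pairs of a member and a young group, 24 had a library that stood apart by Dixon's 95% criterion, 23 high and 1 low. Chance flags about 1 in 20 groups where values are normally distributed. CPM of the members need not be, so that share is not a background for these flags. The groups of 12 old libraries were not examined in this way.

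Young PYC library 2, whose mitochondrial share was 0.215%, stood apart in 4 members. It had 60.4 CPM of Atp6v1a, the pump subunit gene called in VIP pools, below the 205.5 to 312 CPM of the other young PYC libraries. It also had 352 CPM of Sqstm1, 68.5 CPM of Optn and 38.1 CPM of Cln3, above the 255, 33.4 and 16.6 CPM that were the highest of the others. Young PYC library 8 had 63.6 CPM of Atg3 and 135 CPM of Wipi2, library 9 had 78.1 CPM of Gabarap and library 3 had 4.34 CPM of Tfeb, all above the rest of that group.

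Among young PV libraries, library 2 was high in Atp6v0d1 (274 CPM) and in Map1lc3b (231 CPM), the LC3 gene called in PV pools. Library 6 was high in Atg12 (80.3 CPM) and Optn (85.3 CPM), library 8 in Npc1 (161 CPM) and Ctsz (21.1 CPM), library 3 in Ppt1 (223 CPM) and library 7 in Ulk1 (206 CPM).

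Young SST library 4 was high in Map1lc3a (113 CPM) and Gabarap (60.6 CPM), library 3 in Lamtor1 (89.9 CPM) and library 6, of low mitochondrial share, in Psap (833 CPM). Among young VIP libraries, library 4 was high in Ctsb (398 CPM, the others reaching 274 CPM), library 2 in Gabarap (139 CPM), library 7 in Gla (10.98 CPM) and library 3, also of low mitochondrial share, in Npc2 (33.8 CPM).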

How the results depend on the processing

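With no filter other than a count in at least 1 library, edgeR called 6505 genes for age in PYC, 6355 in PV, 5734 in SST and 7117 in VIP, against 0 with the filter, and 1 member each in PYC (Lmbrd1) and VIP (Mcoln1). The cause was not tested. DESeq2 called 2 genes in PV and 1 in SST, none of them members. Leaving out each library in turn left 0 genes and 0 members called for age in all 83 fits. The age value of Atg16l1 in PV turned to −0.0185 with the F number as a factor. Of type comparisons, limma-voom called 4 members in PYC, 15 in PV, 3 in SST and 7 in VIP, against 2, 7, 0 and 5 in edgeR, and 23.1%, 32.5%, 11.8% and 14.1% of all genes, against 16.6%, 22.6%, 7.56% and 12.0% in edgeR. Old libraries alone gave 4 in PYC, 1 in SST and 2 in VIP, and young libraries alone 0 in PYC, 1 in PV and 2 in VIP, with 2 and 4 of the other pump subunits called lower in VIP (8 with all libraries). These fits hold fewer libraries and called 6.07% to 19.5% of all genes with old and 3.31% to 13.9% with young libraries. Of 104 values of named members in type comparisons, 76 kept their call and direction and 28 lost the call without turning, 11 of them with young libraries alone. Ctsb kept its calls in PV and VIP under all 8 alternatives. Leaving mitochondrial and ribosomal RNA genes out of library totals gave a median member level of 49.3 CPM, against 39.4 CPM with them.

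No paired analysis was possible because library numbers follow the order of the samples and no label ties libraries to mice. Members with a few CPM (such as Npc2, Ctsz, Gla, Cln3 and Tfeb) had wide intervals, which limits what their comparisons can show.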
